A study of Homo sapiens with 10 samples.

Results

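Nuclear long noncoding RNAs and the proteins of paraspeckles were followed in cultured epithelial cells after knockdown of a nuclear envelope gene on soft and stiff substrates. The set held 8 genes, chosen by symbol from 40664 gene entries of the deposited count table: the noncoding RNAs NEAT1, MALAT1 and KCNQ1OT1, and the protein-coding genes SFPQ, NONO, PSPC1, RBM14 and HNRNPK. All 8 were present with 1 entry each and were among the 13990 genes that passed the filter on low counts. The cells were hTERT RPE-1, an established human line derived from retinal pigment epithelium and immortalised with telomerase. They were kept on a 10 kPa or a 120 kPa substrate, as controls or treated with siNemp1, named as a small interfering RNA against NEMP1, which encodes a membrane protein of the nuclear envelope. Ribosomal RNA was depleted from total RNA and 10 libraries were sequenced: 2 control and 2 siNemp1 libraries at 10 kPa, and 3 of each at 120 kPa. All groups are of 1 cell line, and the labels do not give the nature of the control treatment, the duration of the knockdown or the material of the substrate.

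Paraspeckles are ribonucleoprotein bodies in the nucleus that assemble around the long isoform of NEAT1. The DBHS proteins SFPQ, NONO and PSPC1 coat this RNA, RBM14 holds the body together through its prion-like domain, and HNRNPK favours the long NEAT1 isoform by countering early 3′-end processing. MALAT1 is the abundant RNA of nuclear speckles, which store splicing factors, and KCNQ1OT1 is transcribed from the paternal chromosome, where it silences neighbouring imprinted genes.

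NEAT1 and MALAT1 lie next to each other on chromosome 11 and share an unusual 3′ end. It is made by RNase P cleavage upstream of a tRNA-like element and is protected by a triple helix in place of a poly(A) tail. The last 110 bases before that element are shown because they set these RNAs apart from KCNQ1OT1 and the messenger RNAs of the set. They come from GENCODE 29 on GRCh38 (NEAT1 chr11:65445431-65445540, MALAT1 chr11:65506007-65506116, both plus strand) and are written 5′ to 3′, with every run of at least 8 bases that the 2 ends share in capitals.
NEAT1: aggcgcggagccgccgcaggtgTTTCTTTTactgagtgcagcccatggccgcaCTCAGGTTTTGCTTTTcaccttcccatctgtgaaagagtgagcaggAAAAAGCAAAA
MALAT1: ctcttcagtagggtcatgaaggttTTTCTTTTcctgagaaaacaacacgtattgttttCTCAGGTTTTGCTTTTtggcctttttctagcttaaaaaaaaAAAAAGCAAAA
The shared runs are TTTCTTTT and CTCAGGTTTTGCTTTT, which hold the U-rich strands of the known triple helix, and AAAAAGCAAAA, the A-rich strand at the very end. Searched on the sense strand, TTTCTTTT was found in the last 110 bases of 1.38% of 201525 annotated transcripts and AAAAAGCAAAA in 0.0491%. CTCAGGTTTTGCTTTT was found in 1 transcript, the long isoform NEAT1-202, a single exon of 22743 bases that held all 3 runs. Annotated MALAT1 transcripts run past the cleavage site, so their own ends do not hold the motifs. The deposited table has 1 value per gene, so the long and short isoforms of NEAT1 were not separated here.

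Promoters spanning 250 bases before to 50 bases after a start site were matched in RefSeq (GRCh38.p14) for 5 of the 8 genes, MALAT1, NONO, PSPC1, RBM14 and HNRNPK, with 7 promoters in all. MALAT1 is shown because its downstream promoter was the only one of the 7 with a TATA box. It lies at chr11:65498795-65499094 on the plus strand, with the TATAAA in capitals starting 30 bases before the start site.
MALAT1 promoter: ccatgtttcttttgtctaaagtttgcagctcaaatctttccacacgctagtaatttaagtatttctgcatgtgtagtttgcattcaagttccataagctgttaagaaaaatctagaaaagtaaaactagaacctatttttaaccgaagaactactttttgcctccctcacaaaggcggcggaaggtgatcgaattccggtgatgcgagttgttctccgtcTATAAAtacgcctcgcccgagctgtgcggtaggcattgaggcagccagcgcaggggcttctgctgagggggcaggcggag
TATAAA was held by 11.5% of 35116 promoters when both strands were searched. The CCAAT box, found in 34.6% of promoters, occurred 3 times each in the NONO and RBM14 promoters and 2 times in 1 of the HNRNPK promoters. GGAATG, the core of TEAD sites (14% of promoters), was present once in RBM14. None of the 7 held TGACTCA (AP-1, 4.95% of promoters), TGACGTCA (CRE, 1.85%) or GAANNTTC (a heat shock element core, 6.77%).

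Each library held between 17.9 and 23.8 M estimated counts, M standing for 1000000. The targeted gene, NEMP1, lay between 14.0 and 18.3 counts per 1000000 (CPM) in the 5 control libraries and between 4.11 and 8.22 CPM in the 5 siNemp1 libraries. Among the latter it was lower at 120 kPa (7.52, 6.70 and 4.11 CPM) than at 10 kPa (8.22 and 7.63 CPM), without overlap. In control libraries NEMP1 overlapped between the stiffnesses. Keratin KRT8 (755 to 1200 CPM), MITF (81.1 to 154 CPM) and OTX2 (18.4 to 29.7 CPM) were present in every library, whereas the visual-cycle genes RPE65 and RLBP1 and the epithelial genes CDH1 and EPCAM stayed at or below 0.162 CPM. Nothing in the labels says that replicates came from separate cultures, so p-values here measure only the spread between these libraries. In such bulk samples fewer cells of a kind and less RNA per cell cannot be told apart. The strand setting of the counting was not stated in the sources used here, so values of KCNQ1OT1, which lies inside KCNQ1 on the opposite strand, of MALAT1, which overlaps its antisense RNA, and of PSPC1 and HNRNPK, which overlap antisense genes, can include reads of the partner. RBM14 shares sequence with the readthrough gene RBM14-RBM4.

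The first question was how these genes differed under siNemp1 on the stiff substrate. All 3 noncoding RNAs were lower in every siNemp1 library than in every control library at 120 kPa, by about 1 log2 unit in the fit, while the paraspeckle protein genes moved by 0.29 or less. NEAT1 and KCNQ1OT1 had been seen as large decreases of this contrast when the genes were chosen, so it is described here with no test.

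NEAT1 (ENSG00000245532, chromosome 11, 65422774 to 65445540, plus strand), the scaffold of paraspeckles, lay at 862, 726 and 557 CPM in the control libraries and at 304, 292 and 348 CPM in the siNemp1 libraries at 120 kPa. The group means were 715 ± 153 and 315 ± 29.8 CPM (SD, n = 3 each). The lowest control library was replicate 3, and it still stood above all siNemp1 libraries. The fitted log2 change was −1.18 ± 0.15 (SE).

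MALAT1 (ENSG00000251562, chromosome 11, 65497688 to 65506516, plus strand) had the highest CPM of the set, at 4114, 3069 and 2157 CPM in control and 1774, 1443 and 1670 CPM in siNemp1 libraries at 120 kPa. Its control libraries spread widely, with replicate 1 the highest and replicate 3 the lowest, but they did not overlap the siNemp1 libraries. The means were 3114 ± 979 and 1629 ± 169 CPM (SD, n = 3 each), and the fitted log2 change was −0.93 ± 0.20 (SE).

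KCNQ1OT1 (ENSG00000269821, chromosome 11, 2608328 to 2699994, minus strand) is a single-exon RNA of 91667 bases. It lay at 27.1, 23.0 and 19.6 CPM in control and 10.5, 8.36 and 11.9 CPM in siNemp1 libraries at 120 kPa. Again replicate 3 was the lowest control and the groups were separate. The log2 change was −1.18 ± 0.17 (SE), from means of 23.2 ± 3.77 and 10.3 ± 1.78 CPM (SD, n = 3 each).

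Replicate numbers bore on the size of these differences. Within same-numbered libraries at 120 kPa, the log2 ratio of siNemp1 to control was −1.51, −1.31 and −0.68 for NEAT1 in replicates 1, 2 and 3. For MALAT1 it was −1.21, −1.09 and −0.37, and for KCNQ1OT1 −1.37, −1.46 and −0.72. All 9 ratios were negative, which any pairing of these libraries would give, since the groups did not overlap. Replicate 3 gave the smallest ratio for each RNA. The mitochondrial share of counts moved with them: control libraries at 120 kPa had 1.73%, 1.4% and 0.913%, and siNemp1 libraries 1.06%, 0.826% and 0.709%. Ribosomal protein genes took 5.05%, 5.31% and 7.28% of counts in control and 6.39%, 6.75% and 7.9% in siNemp1 libraries. The 3 noncoding RNAs themselves made up 0.501%, 0.386% and 0.28% against 0.194%, 0.17% and 0.213% of all counts. NEMP1 lay at 7.52, 6.70 and 4.11 CPM in siNemp1 replicates 1, 2 and 3 at 120 kPa, and so was lowest in replicate 3. The part of the NEMP1 level and of mitochondrial and ribosomal protein transcripts in the result was not tested.

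**Figure D1:**
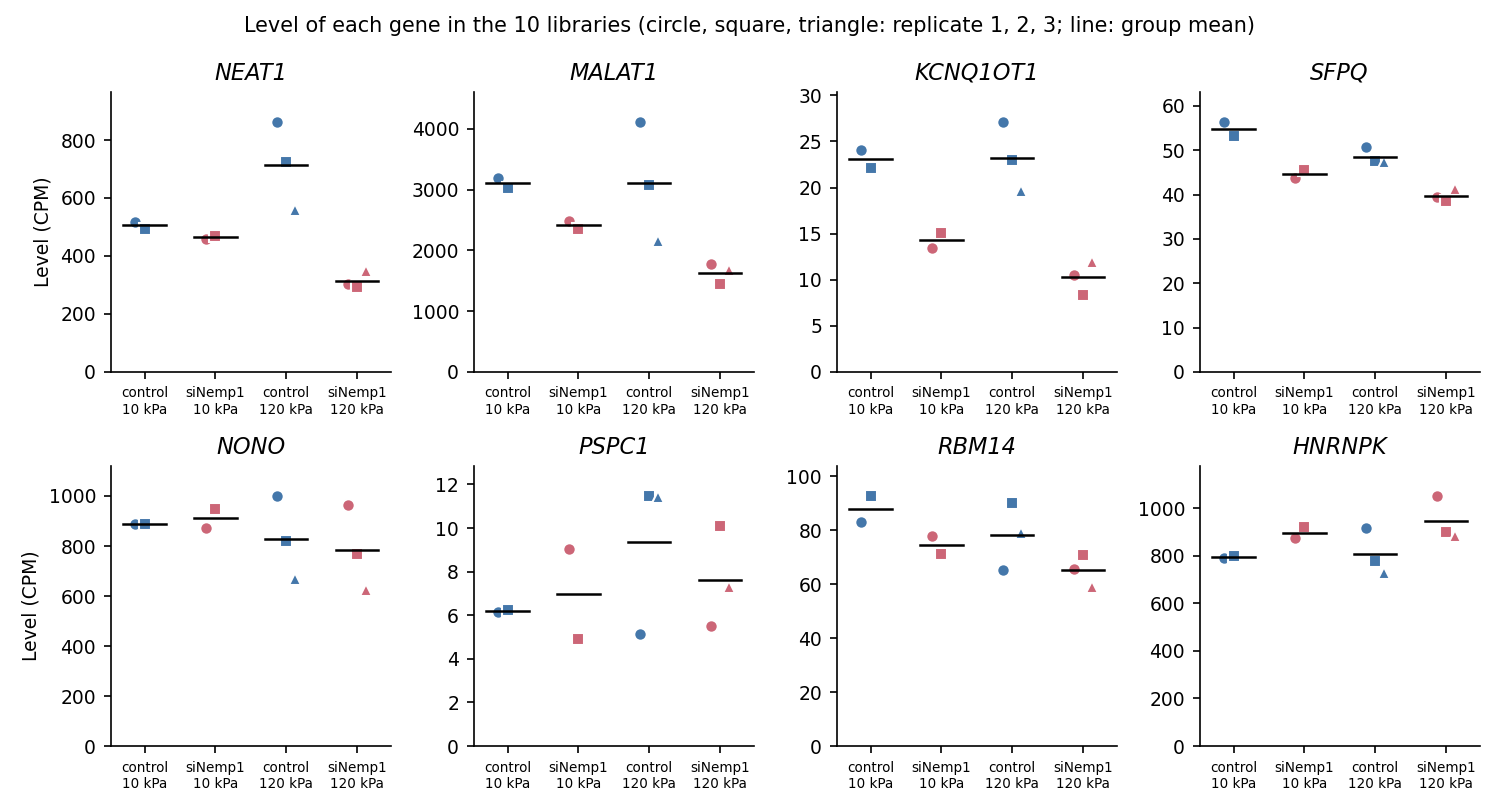
Counts per 1000000 of each of the 8 genes in every library, each on its own linear axis from 0 and grouped by treatment and stiffness. Circles, squares and triangles are replicates 1, 2 and 3, lines are group means, and NEAT1, MALAT1, KCNQ1OT1 and SFPQ sit lower in all 3 siNemp1 than in all 3 control libraries at 120 kPa, while NONO and PSPC1 overlap.

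Of the 8 genes, 4 were lower without overlap at 120 kPa (NEAT1, MALAT1, KCNQ1OT1 and SFPQ), against 6.95% of the 13990 genes, and none was higher without overlap, against 10.9%. Over all genes, edgeR with the replicate number as a block called 1224 (8.75%), of which the lower ones made up 2.51% of those tested. Without the block edgeR called 0 genes (0%), the unadjusted p was under 0.05 for 2413, and DESeq2 called 642. Fitted alone, the 120 kPa libraries gave 0 calls among 13362 genes. The counts of the 8 genes without overlap use the contrast known when the genes were chosen and are given as description.

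The libraries at 10 kPa took no part in that contrast and allowed a test. NEAT1 differed little there, KCNQ1OT1 had the largest difference of the set, and MALAT1 lay between them. In the fit of all 10 libraries, whose spread is shared with the more variable 120 kPa groups, none of the 8 passed. The same was true of every other gene: edgeR called 0 of 13990 (0%), the unadjusted p was under 0.05 for 850, and DESeq2 called 17.

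NEAT1 lay at 518 and 494 CPM in control and 459 and 469 CPM in siNemp1 libraries at 10 kPa. The 4 values did not overlap between treatments, but the gap was small beside that at 120 kPa. The log2 change was −0.13 ± 0.19 (SE), and the Benjamini-Hochberg adjusted p from edgeR was 0.94.

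MALAT1 lay at 3189 and 3025 CPM in control and 2490 and 2349 CPM in siNemp1 libraries at 10 kPa, again without overlap. Its log2 change was −0.36 ± 0.25 (SE; adjusted p of 0.88, edgeR). KCNQ1OT1 lay at 24.1 and 22.2 against 13.5 and 15.1 CPM. That is a log2 change of −0.70 ± 0.21 (SE), for which edgeR gave an unadjusted p of 0.0064 and an adjusted p of 0.80.

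The 4 libraries at 10 kPa spread less than the others, with a common dispersion of 0.00423 against 0.0525 at 120 kPa. Fitted alone they gave nearly the same changes with smaller errors, and edgeR called 5 of the 8 genes, 4 lower and 1 higher in siNemp1, against 2308 of 13345 genes (17.3%; 9.19% lower and 8.1% higher). KCNQ1OT1 fell by 0.71 ± 0.12 on the log2 scale (adjusted p of 0.000194), MALAT1 by 0.37 ± 0.06 (adjusted p of 0.00012) and SFPQ by 0.31 ± 0.07 (adjusted p of 0.0055). RBM14 fell by 0.25 ± 0.07 (adjusted p of 0.0153) and HNRNPK rose by 0.16 ± 0.06 (adjusted p of 0.0478). NEAT1, at −0.14 ± 0.05, missed the threshold at an adjusted p of 0.084. All these values are from edgeR with n = 2 each.

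Leaving out 1 of these 4 libraries leaves a single library in its group, which is then assumed to vary like the pair of the other group, so the values that follow are no check of stability. The adjusted p of KCNQ1OT1 then ran from 7.37e-05 to 0.00454 in edgeR. Without control replicate 1 the adjusted p of MALAT1 was 0.0692 and that of SFPQ 0.137. RBM14 was not called without control replicate 2 (0.318) or siNemp1 replicate 2 (0.0615), nor HNRNPK without control replicate 1 (0.452) or 2 (0.378) or with DESeq2's size factors (0.0561). NEAT1, uncalled with all 4, was called as lower without siNemp1 replicate 1 (0.0374) or 2 (0.00177), and NONO as higher without siNemp1 replicate 1 (0.00602), with a spread that came from the 2 control libraries alone. These settings were added after the data were seen. The mitochondrial share overlapped between treatments at 10 kPa, at 1.6% and 1.54% in control and 1.48% and 1.55% in siNemp1 libraries. Ribosomal protein genes took 4.83% in each control library and 5% and 5.37% in the siNemp1 libraries there, which did not overlap. Their part in the result was not tested.

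**Figure D2:**
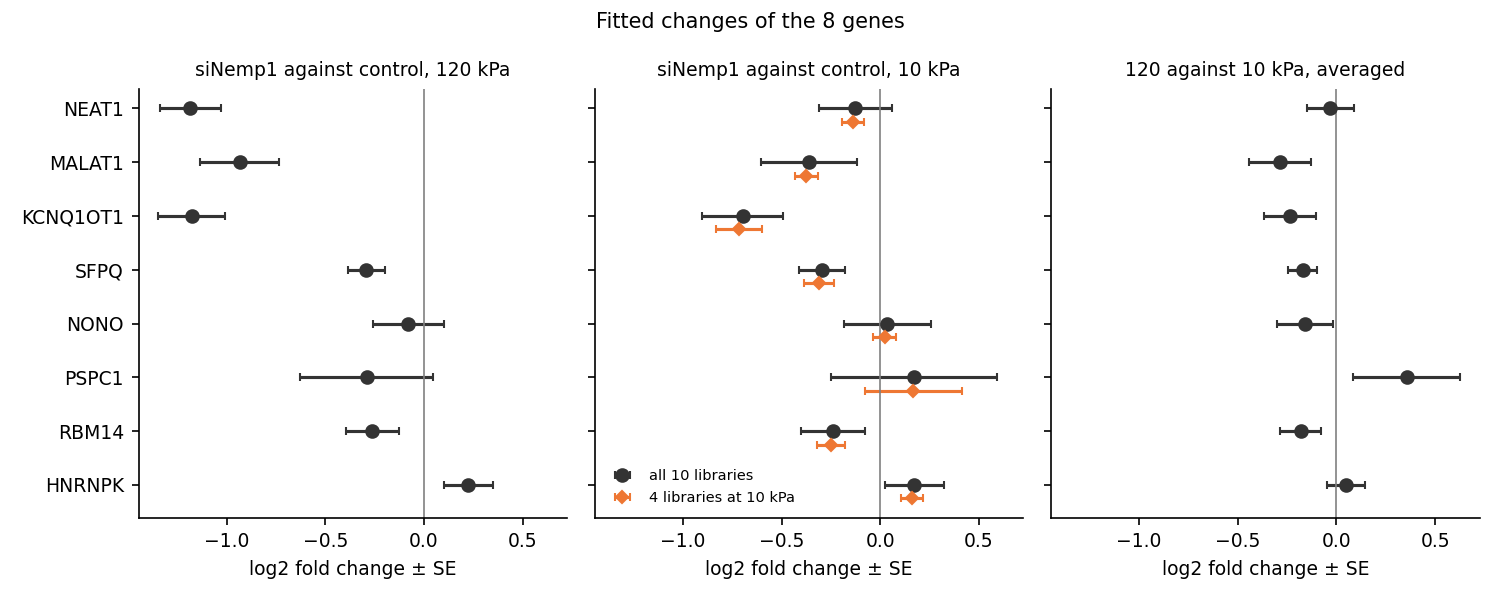
Fitted log2 fold changes of the 8 genes with their standard errors, for siNemp1 against control at 120 kPa, the same at 10 kPa, and 120 against 10 kPa averaged over treatments. The 3 noncoding RNAs lie near −1 at 120 kPa, and at 10 kPa the fit of the 4 libraries there (diamonds) has shorter bars than the fit of all 10 (circles).

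The stiffness comparison set the same libraries against each other within a treatment. NEAT1 moved in opposite directions. In control cells it was higher in all 3 libraries at 120 kPa (557 to 862 CPM) than in both at 10 kPa (494 and 518 CPM), a log2 difference of 0.50 ± 0.17 (SE). Such a separation upward was seen for 10.3% of all genes. In siNemp1 cells it was lower in all 3 at 120 kPa (292 to 348 CPM) than in both at 10 kPa (459 and 469 CPM), a difference of −0.56 ± 0.17. Among all genes, 2163 of 13990 were lower without overlap in siNemp1 cells, and 33.7% had groups without overlap in either direction. The knockdown differences of NEAT1 at the 2 stiffnesses were thus 1.06 ± 0.24 log2 units apart, with that at 120 kPa the more negative. As the 120 kPa libraries were in view when the gene was chosen, this has no test here. NEMP1 itself was lower in the siNemp1 libraries at 120 kPa than in those at 10 kPa, and its part in this difference was not tested.

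MALAT1 and KCNQ1OT1 showed another pattern. In control cells neither differed with stiffness beyond the spread: MALAT1 averaged 3107 ± 116 CPM (SD, n = 2) at 10 kPa and 3114 ± 979 CPM (n = 3) at 120 kPa, and KCNQ1OT1 23.1 ± 1.38 and 23.2 ± 3.77 CPM. In siNemp1 cells both were lower at 120 kPa without overlap, with log2 differences of −0.57 ± 0.22 for MALAT1 and −0.48 ± 0.19 for KCNQ1OT1. These comparisons share the 120 kPa siNemp1 libraries with the knockdown contrast above.

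Averaged over treatments with equal weight, no gene of the set passed for stiffness. This average still uses the 120 kPa libraries, whose spread differed between control and siNemp1, so it is not fully independent of the knockdown contrast. The log2 difference of NEAT1 was −0.03 ± 0.12 (SE), as its control and siNemp1 changes had opposite signs. MALAT1 gave −0.28 ± 0.16, KCNQ1OT1 −0.24 ± 0.13 and SFPQ −0.17 ± 0.07, and the adjusted p of the 8 ran from 0.30 to 0.92 in edgeR. Here edgeR called 0 of all genes (0%), 2200 had an unadjusted p under 0.05, and DESeq2 called 491.

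**Figure D3:**
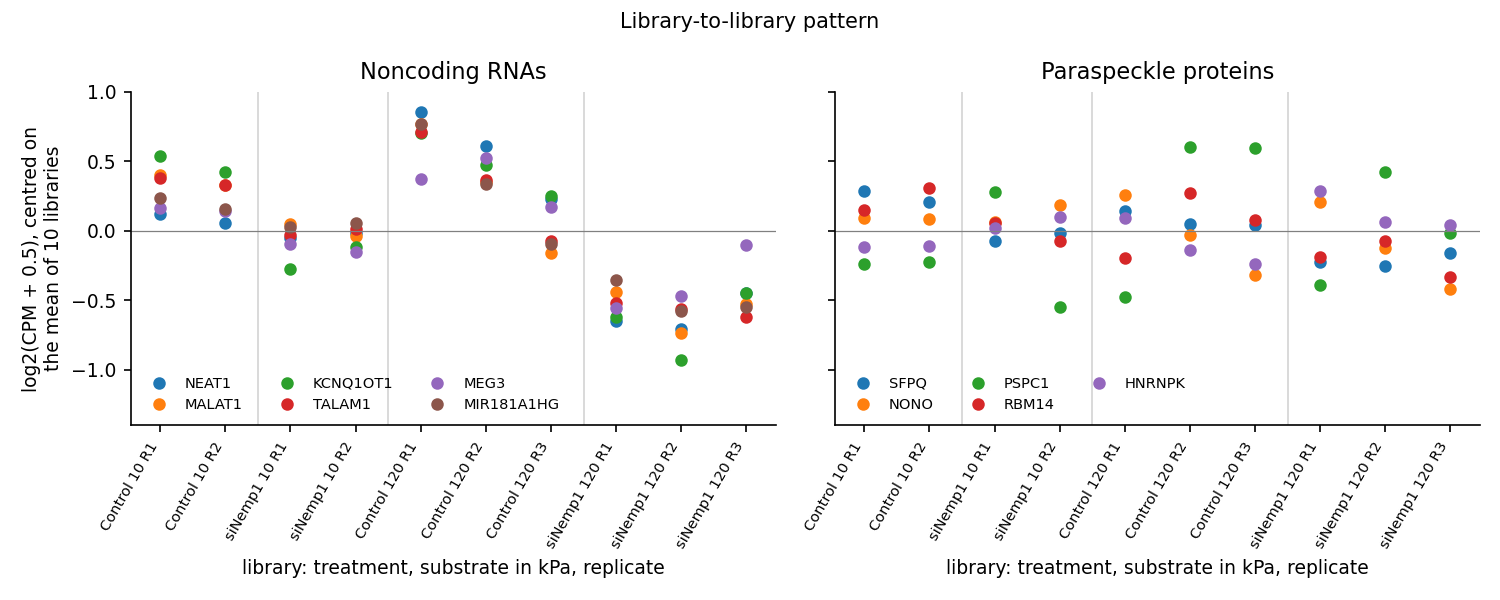
Log2 level (log2 of CPM + 0.5) in each library, centred on the mean of the gene over the 10 libraries, with 1 point per gene and library and grey lines between groups: noncoding RNAs left, paraspeckle protein genes right. NEAT1, MALAT1 and KCNQ1OT1 run close together and are lowest in the 3 siNemp1 libraries at 120 kPa. TALAM1 and MIR181A1HG, and SFPQ on the right, are also lowest there.

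Among the DBHS proteins, SFPQ (ENSG00000116560, chromosome 1, 35176378 to 35193148, minus strand), a splicing factor needed for NEAT1 stability, showed small and even differences. It lay at 56.4 and 53.2 CPM in control and 43.8 and 45.5 CPM in siNemp1 libraries at 10 kPa. At 120 kPa it lay at 50.8, 47.6 and 47.3 CPM in control and 39.4, 38.5 and 41.2 CPM in siNemp1 libraries. Groups were separate for both treatments and both stiffnesses: siNemp1 below control, and 120 kPa below 10 kPa. In control cells 11.9% of all genes were lower at 120 kPa without overlap. The log2 change under siNemp1 was −0.30 ± 0.12 at 10 kPa (SE; adjusted p of 0.80, edgeR) and −0.29 ± 0.09 at 120 kPa.

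NONO (ENSG00000147140, chromosome X, 71283192 to 71301168, plus strand), the partner of SFPQ, overlapped between treatments at both stiffnesses. At 10 kPa it lay at 890 and 887 CPM in control and 873 and 948 CPM in siNemp1 libraries. At 120 kPa same-numbered libraries lay close to each other, at 999, 818 and 668 CPM in control and 963, 767 and 624 CPM in siNemp1 libraries. The log2 changes under siNemp1 were 0.04 ± 0.22 (adjusted p of 0.99, edgeR) and −0.08 ± 0.18.

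PSPC1 (ENSG00000121390, chromosome 13, 19674752 to 19783019, minus strand), the DBHS protein through which paraspeckles were first described, was the lowest of the set. It lay at 6.17 and 6.26 CPM in control and 9.06 and 4.90 CPM in siNemp1 libraries at 10 kPa. At 120 kPa it lay at 5.16, 11.5 and 11.4 CPM in control and 5.51, 10.1 and 7.31 CPM in siNemp1 libraries. Groups overlapped at both stiffnesses, and with standard errors of 0.42 and 0.34 on its log2 changes of 0.17 and −0.29 only a large difference would have been seen.

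RBM14 (ENSG00000239306, chromosome 11, 66616582 to 66627347, plus strand) lay at 83.0 and 92.6 CPM in control and 77.8 and 71.1 CPM in siNemp1 libraries at 10 kPa. At 120 kPa it lay at 65.2, 90.1 and 78.9 CPM in control and 65.5, 70.9 and 59.1 CPM in siNemp1 libraries. The groups were separate at 10 kPa and overlapped at 120 kPa. Its log2 changes were −0.24 ± 0.16 (SE; adjusted p of 0.88, edgeR) and −0.26 ± 0.13.

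HNRNPK (ENSG00000165119, chromosome 9, 83968083 to 83980616, minus strand) differed upward. It lay at 792 and 798 CPM in control and 874 and 919.6 CPM in siNemp1 libraries at 10 kPa, without overlap. At 120 kPa it lay at 917, 779.5 and 728 CPM in control and 1050.4, 899 and 884 CPM in siNemp1 libraries, with control replicate 1 inside the siNemp1 range. Within same-numbered libraries the log2 ratio of siNemp1 to control was 0.14 and 0.20 at 10 kPa and 0.20, 0.21 and 0.28 at 120 kPa, all positive. The numbers did not pair the libraries at 10 kPa, where the groups do not overlap and any pairing gives positive ratios. The fitted log2 changes were 0.17 ± 0.15 (SE; adjusted p of 0.90, edgeR) and 0.23 ± 0.12.

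Counting both directions, the groups of 6 of the 8 genes did not overlap at 10 kPa, all but NONO and PSPC1. With 2 libraries a group this is common, and 57.3% of all genes had such groups. Per kilobase of median transcript length the order of the protein genes was NONO (997 ± 147 CPM per kb), HNRNPK (903 ± 97.0), RBM14 (109 ± 15.9), SFPQ (68.4 ± 8.72) and PSPC1 (4.61 ± 1.53), as means and SD over the 10 libraries. NONO and HNRNPK were within each other's spread, and with the longest transcript HNRNPK (294 CPM per kb) stood above NONO (262 CPM per kb). The noncoding RNAs were not ranked, since the annotated lengths of NEAT1 range from short to long isoforms.

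The genes most like each noncoding RNA were taken as those with the smallest root mean square difference of centred log2 level (log2 of CPM + 0.5) over the 10 libraries. The candidates were 9557 genes with a standard symbol averaging 5 CPM or more. Genes with clone-based names and most hyphenated symbols were left out and could not appear. The nearest genes are a description, since all points come from the same libraries and share their depth and composition. For NEAT1, whose own deviation from its mean was 0.479 log2 units, the nearest were MIR181A1HG (0.183), TALAM1 (0.195), MALAT1 (0.209), MEG3 (0.214) and KCNQ1OT1 (0.215). MALAT1 and KCNQ1OT1 belong to the set chosen with the 120 kPa decrease in view, and TALAM1 may share reads with MALAT1.

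MALAT1 was nearest to its antisense RNA TALAM1 (0.082), then to the microRNA host gene MIR181A1HG (0.103), the DNA repair gene BRCA2 (0.153), the helicase gene MCM8 (0.162) and MIR222HG (0.164). KCNQ1OT1 was nearest to MALAT1 (0.2), TALAM1 (0.201), NEAT1 (0.215), the immediate early gene EGR1 (0.216) and BRCA2 (0.219). The protein genes of paraspeckles were farther from NEAT1: SFPQ ranked 407, RBM14 1975, NONO 2876, HNRNPK 5746 and PSPC1 7412 of the 9557 genes. This measure also depends on how much a gene varies, so it does not compare pattern alone. The correlation with NEAT1 was 0.735 for SFPQ, 0.391 for RBM14, 0.275 for NONO, −0.481 for HNRNPK and 0.004 for PSPC1. For SFPQ it was 0.866 with MALAT1 and 0.929 with KCNQ1OT1, and MALAT1 with KCNQ1OT1 also gave 0.929.

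Neighbouring genes were compared with the noncoding RNAs. TALAM1 lay at 82.6 and 79.8 CPM in control and 62.1 and 64.1 CPM in siNemp1 libraries at 10 kPa. At 120 kPa it lay at 104, 81.8 and 60.3 CPM in control and 44.1, 42.7 and 41.0 CPM in siNemp1 libraries. Like MALAT1 it was lower in every siNemp1 than in every control library at both stiffnesses, and reads of the pair may not be separable here. In the blocked fit TALAM1 fell by 0.92 ± 0.13 on the log2 scale at 120 kPa. This is given with no test, as TALAM1 may share reads with MALAT1. In the fit of the 10 kPa libraries TALAM1 fell by 0.38 ± 0.07 (adjusted p of 0.000378, edgeR).

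Of 14 tested neighbours of NEAT1 and MALAT1, TALAM1 included, 11 were lower under siNemp1 at 10 kPa, with a median log2 change of −0.22, and 8 were lower at 120 kPa, with a median of −0.16. Over all genes the medians were 0.00 and 0.01, and 50.3% and 49.2% were lower. In the fit of the 10 kPa libraries edgeR called 3 of the 14 neighbours as lower (21.4%, against 17.3% of all genes). TALAM1 and PCNX3 (−0.61 ± 0.13, adjusted p of 0.00311) were among them. As TALAM1 may share reads with MALAT1, it may not count as a separate gene in this share. In the blocked fit at 120 kPa no neighbour other than TALAM1 was called.

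KCNQ1OT1 silences genes such as CDKN1C and lies within KCNQ1. KCNQ1 itself was listed at 0 in all 10 libraries. Of 6 tested neighbours in the imprinted domain, 4 were lower at 10 kPa and 2 at 120 kPa under siNemp1, against 50.3% and 49.2% of all genes. Their median log2 changes were −0.22 and 0.18. In the fit of the 10 kPa libraries 5 of them were tested and 1 was called (20%, against 17.3% of all genes). This was the tetraspanin gene CD81, with a decrease of 0.23 ± 0.06 (adjusted p of 0.0121, edgeR). None was called in the blocked fit at 120 kPa.

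The other proteins of paraspeckles were taken from a list with 31 tested genes. All related lists, the neighbours included, were chosen with earlier results of these data known. Their calls and p-values are therefore given as description. Without the block edgeR called 0 genes at 120 kPa. Under siNemp1, 23 were lower at 10 kPa and 21 at 120 kPa, where 50.3% and 49.2% of all genes were lower. Their median log2 changes were −0.05 and −0.11. In the fit of the 10 kPa libraries edgeR called 8 of them (25.8%, against 17.3% of all genes), 6 lower and 2 higher. The chromatin remodeller SMARCA4 fell by 0.60 ± 0.08 (adjusted p of 1.27e-05) and HNRNPUL1 by 0.38 ± 0.08 (adjusted p of 0.00204), while HNRNPF rose by 0.28 ± 0.06 (adjusted p of 0.00127). In the blocked fit at 120 kPa 2 rose and none fell (6.45%, against 8.75% of all genes). HNRNPF rose by 0.35 ± 0.10 (adjusted p of 0.0452) and RBM7, which guides the nuclear exosome, by 0.35 ± 0.10 (adjusted p of 0.0463).

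Nuclear speckles, where MALAT1 resides, were represented by 25 tested protein genes, a list also chosen with earlier results known. Of these 18 were lower at 10 kPa and 21 at 120 kPa, with medians of −0.17 and −0.23 on the log2 scale, where 50.3% and 49.2% of all genes were lower. In the fit of the 10 kPa libraries edgeR called 11 (44%, against 17.3% of all genes), 10 of them lower. SRRM2, a scaffold of the speckle, fell by 0.62 ± 0.07 (adjusted p of 3.07e-06), RNPS1 by 0.36 ± 0.06, PNN by 0.43 ± 0.08 and SRRM1 by 0.30 ± 0.06. In the blocked fit at 120 kPa 4 fell and none rose (16%, against 8.75% of all genes). SRRM2 fell by 0.64 ± 0.15 (adjusted p of 0.0317), SRRM1 by 0.42 ± 0.10, LUC7L3 by 0.47 ± 0.12 and PNN by 0.51 ± 0.14.

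Regulators and decay factors of these RNAs formed a list of 17 tested genes, again chosen with earlier results known. Of these 13 were lower at 10 kPa and 11 at 120 kPa, where 50.3% and 49.2% of all genes were lower. Their medians were −0.12 and −0.13. In the fit of the 10 kPa libraries 6 fell and 2 rose (47.1%, against 17.3% of all genes). EPAS1, which encodes the hypoxia factor HIF-2α, an activator of NEAT1, fell by 0.46 ± 0.08 there (adjusted p of 0.000304). At 120 kPa EPAS1 overlapped between treatments, at 33.3, 48.4 and 57.7 CPM in control and 31.9, 47.3 and 64.5 CPM in siNemp1 libraries, a log2 change of 0.04 ± 0.25. At 10 kPa DROSHA fell by 0.28 ± 0.06, BRCA1 by 0.47 ± 0.11 and HIF1A by 0.24 ± 0.06. In the blocked fit at 120 kPa 3 fell (17.6%, against 8.75% of all genes): ZFC3H1 by 0.60 ± 0.11 (adjusted p of 0.0111), DROSHA by 0.52 ± 0.10 (adjusted p of 0.0159) and BRCA1 by 0.59 ± 0.15 (adjusted p of 0.0313).

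Other noncoding RNA genes, likewise listed with earlier results known, lay on both sides of 0. Of 18 other tested noncoding RNA genes, 11 were lower at 10 kPa and 8 at 120 kPa, where 50.3% and 49.2% of all genes were lower. Their medians were −0.10 and 0.01. In the fit of the 10 kPa libraries 1 was called, as lower (5.56%, against 17.3% of all genes). In the blocked fit at 120 kPa 1 rose and 1 fell (11.1%, against 8.75% of all genes). MEG3 lay at 260, 289 and 226 CPM in control and 136, 145 and 187 CPM in siNemp1 libraries at 120 kPa. It fell by 0.73 ± 0.13 in the blocked fit there (adjusted p of 0.0120) and by 0.29 ± 0.06 in the fit of the 10 kPa libraries (adjusted p of 0.000804, edgeR). CYTOR rose by 0.74 ± 0.12 in the blocked fit at 120 kPa (adjusted p of 0.00851, edgeR). Over 396 other genes annotated as lincRNA the median log2 change was 0.05 at 10 kPa and 0.07 at 120 kPa, and 43.7% were lower at 120 kPa. Of such genes edgeR called 2.4% of 333 in the fit of the 10 kPa libraries and 4.29% of 396 in the blocked fit at 120 kPa.

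**Figure D4:**
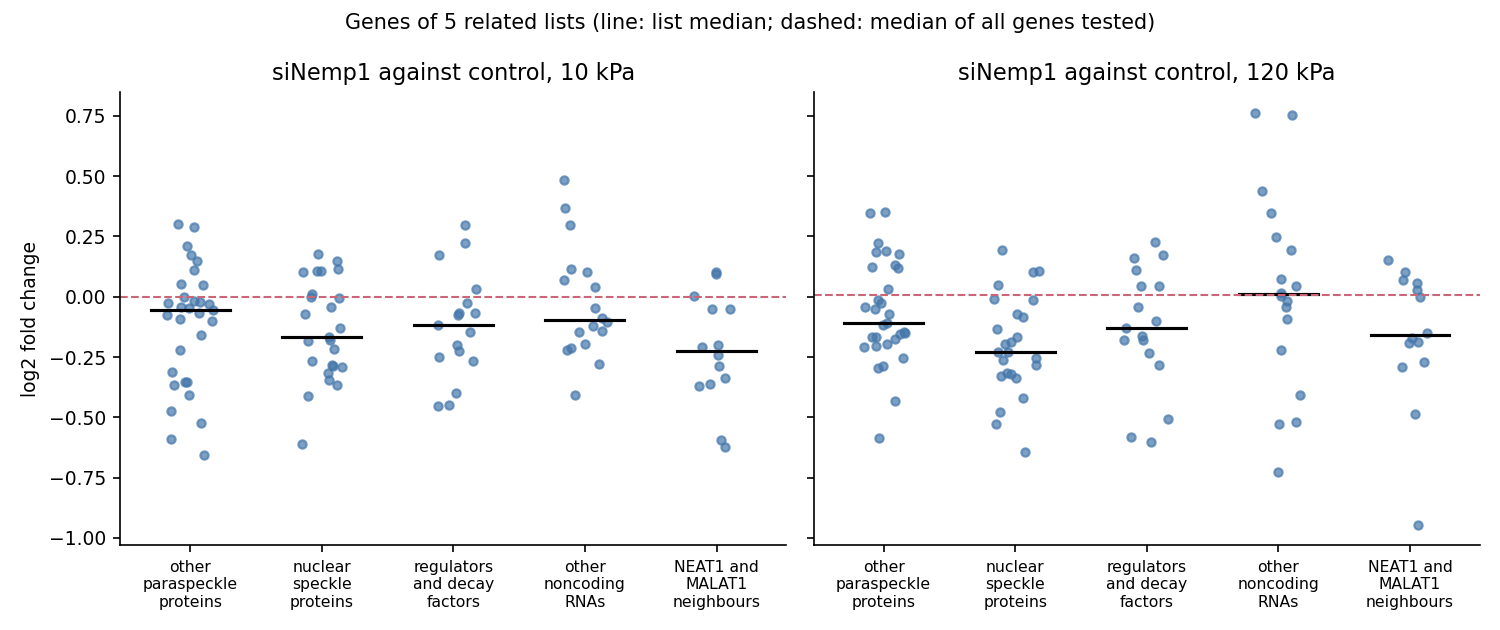
Log2 changes under siNemp1 of the genes in each related list, with 1 point per gene, a line at the list's median and a dashed line at the median of all genes tested, at 10 kPa and 120 kPa. The speckle list has medians of −0.17 and −0.23, and the other noncoding RNA genes lie about 0 at 120 kPa.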

How the data were processed

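The authors deposited estimated counts (expected counts) per gene, made from reads with Salmon per the submitters' processing notes and not scaled between libraries, for 10 libraries. Those notes name FastQC 0.11.9, Trimmomatic 0.33, Salmon 1.80 (as written there) and edgeR, with GRCh38. The annotation used was not stated there. Groups and replicate numbers came from the titles, and 0 columns were left unused.

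Counts were rounded, filtered with filterByExpr and scaled with TMM. One quasi-likelihood model with a mean per group was fitted in edgeR 4.0.16 (limma 3.58.1, R 4.3.3), with 6 residual degrees of freedom. All tests are two-sided. The Benjamini-Hochberg adjustment ran over every gene tested, with calls at an adjusted p under 0.05. CPM are TMM-scaled. Totals of 17.9 to 23.8 M counts limit the precision mainly for PSPC1. The fits were tested on simulated data.

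The members and the lists were chosen with earlier results of these data known. The text names the 8 genes, NEMP1, tested neighbours, of other lists up to 4 called genes with the smallest p, and the 5 genes most like each noncoding RNA. Not every gene this takes is reported here. Other genes were named after their values were seen.

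Pairing was checked across genes: control and siNemp1 libraries of the same number deviated from their groups together at 120 kPa (r of 0.554, 0.248 and 0.442) but hardly at 10 kPa (0.017). The numbers in the titles were therefore taken to pair the libraries at 120 kPa, and a fit blocked on the replicate number (4 residual degrees of freedom) is given where it changed a call. That block spans all 10 libraries, so the unpaired 10 kPa libraries share its replicate effects. For the related lists, calls come from the 10 kPa libraries alone and from the blocked fit at 120 kPa, and are given as description. The 120 kPa libraries alone gave 0 calls among 13362 genes. The titles do not say what a number means. Alternatives were DESeq2 1.42.0, other scalings and filters, the groups compared alone and each library left out. Sequences came from GENCODE 29 and RefSeq.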

Additional observations from a re-analysis of the deposited data

Results flagged for a closer look

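NEAT1 changed with stiffness in opposite directions in the 2 treatments. Its log2 difference between 120 and 10 kPa was 0.50 in control cells and −0.56 in siNemp1 cells, and all libraries at 120 kPa lay above those at 10 kPa in control and below them in siNemp1. The difference between these changes was not tested for NEAT1, because the gene was chosen with the 120 kPa libraries in view. NEMP1 was also lower in siNemp1 libraries at 120 kPa than at 10 kPa, and its part was not tested.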

How the results depend on the processing

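Counts of called genes depended on the fit. At 10 kPa edgeR called 0 genes in the fit of all libraries, 4 with the replicate block (AKR1B1, GDF3, H2AC19 and INTS3), 66 without a filter and 2308 from the 4 libraries at 10 kPa alone, and DESeq2 called 17. With those 4 alone, settings added after seeing the data gave 2315 with upper-quartile scaling, 2225 with DESeq2's size factors, 844 and 1164 without control replicates 1 and 2, and 3117 and 2390 without siNemp1 replicates 1 and 2. Leaving out 1 of all 10 gave 0 to 2. At 120 kPa the count was 0, and 1224 with the replicate block, 642 with DESeq2 and 643 without a filter. It was 119 with at least 5 CPM in 2 libraries, and 0 of 13362 with the 120 kPa libraries alone. With 1 library at 120 kPa left out it ran from 0 to 582 (582 without control replicate 3). For stiffness averaged over treatments it was 0, 491 with DESeq2, 839 without a filter and 0 to 330 with 1 library left out (330 without control replicate 1 at 120 kPa). The cause was not tested.

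Log2 changes that turned were all near 0 or noisy. NEAT1 for averaged stiffness gave 0.01 with the replicate block and −0.11 to 0.04 with 1 library left out, the highest without control replicate 3 at 120 kPa. At 10 kPa NONO ranged from −0.04 (without siNemp1 replicate 2) to 0.10 and PSPC1 from −0.33 (without siNemp1 replicate 1) to 0.53 (without siNemp1 replicate 2). The replicate block changed no call of the 8 genes at 10 kPa or for averaged stiffness. At 120 kPa the changes of NEAT1 (−1.35 to −1.03), MALAT1 (−1.16 to −0.68) and KCNQ1OT1 (−1.34 to −1.05) stayed negative in every alternative run. PSPC1, at 4.90 to 11.5 CPM, had the largest standard errors of the set in the fit of all 10 libraries.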
